A study of Mus musculus with 48 samples.

Results

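Dendritic cells take up antigen in the skin and present it to T cells, and the 8 genes described here are the markers usually read for them and for Langerhans cells: *Itgax*, *Flt3*, *Zbtb46*, *Cd86*, *Cd83*, *Cd207*, *Epcam* and *Siglech*. They were chosen by name, with earlier results of these data known. Each was represented by the probe set of highest mean among those annotated to that gene alone. All 8 were among the 18194 genes with such a probe set and among the 13650 that passed the filter on low signals.

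The arrays carried total RNA from skin of C3H/HeJ mice, an inbred strain prone to alopecia areata, in a series on preventing that autoimmune hair loss by inhibiting signals of the cytokine interleukin-15 (IL-15). In this model the disease is known to follow the grafting of skin from affected mice onto unaffected ones. The label il15rb is known of the study as an antibody against the IL-15 receptor beta chain. It was compared with phosphate-buffered saline given intraperitoneally (PBS ip). The label jak3i is known as tofacitinib and was compared with PBS pump, and jak12i is known as ruxolitinib and was compared with PBS gavage. Both are inhibitors of Janus kinases (JAK), the enzymes through which many cytokine receptors signal. No label pairs an agent with a route, and doses, ages and sexes are not used here. In week 5 there were il15rb (n = 3), PBS ip (n = 4) and sham (n = 4), a control whose procedure is not given in the labels, in week 6 jak3i (n = 5), PBS pump (n = 3), jak12i (n = 5) and PBS gavage (n = 5), and in week 13 all 3 treatments and all 3 vehicles (n = 3 each). A further week 5 array whose title and treatment label disagree was placed in no group, so 47 of 48 arrays entered the fit. The design text calls the samples biological replicates.

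Conventional dendritic cells arise from bone marrow precursors that need the FLT3 receptor, and they leave the skin for lymph nodes on activation. Langerhans cells sit in the epidermis and around the upper hair follicle, and plasmacytoid dendritic cells are known as a source of type I interferon. Several of the 8 genes are not private to these cells. *Itgax* encodes CD11c, an integrin chain of dendritic cells that macrophages and activated CD8 T cells can also carry, and *Epcam* encodes an adhesion molecule of Langerhans cells and also of follicle and other epithelia.

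Promoter sequence was found for 6 of the 8 genes, all but *Cd86* and *Cd83*, in RefSeq's table of the mouse assembly GRCm38.p6. The 250 bases before the transcription start used in that table are printed for 3 genes. That start lies 24 bases inside RefSeq's span of the gene for *Itgax* and 30 bases inside it for *Siglech*, and that of *Zbtb46*, which has several transcripts, lies 68874 bases inside. *Itgax* (chr7:128129300-128129549, plus strand) and *Epcam* (chr17:87635729-87635978, plus strand) fell together in week 13, and *Siglech* (chr7:55767934-55768183, plus strand) was the lone gene of the 8 to rise. Capitals mark a match to the interferon-gamma-activated site TTCNNNGAA, the motif bound by STAT proteins that act below JAKs.
Itgax: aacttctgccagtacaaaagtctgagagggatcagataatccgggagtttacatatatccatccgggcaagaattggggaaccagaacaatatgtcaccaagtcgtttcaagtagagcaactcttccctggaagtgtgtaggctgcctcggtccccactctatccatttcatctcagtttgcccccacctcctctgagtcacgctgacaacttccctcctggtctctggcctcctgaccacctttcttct
Epcam: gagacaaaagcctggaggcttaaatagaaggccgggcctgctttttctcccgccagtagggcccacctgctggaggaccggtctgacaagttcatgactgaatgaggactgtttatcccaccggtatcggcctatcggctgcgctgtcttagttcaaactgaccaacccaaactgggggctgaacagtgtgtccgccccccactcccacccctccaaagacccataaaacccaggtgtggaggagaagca
Siglech: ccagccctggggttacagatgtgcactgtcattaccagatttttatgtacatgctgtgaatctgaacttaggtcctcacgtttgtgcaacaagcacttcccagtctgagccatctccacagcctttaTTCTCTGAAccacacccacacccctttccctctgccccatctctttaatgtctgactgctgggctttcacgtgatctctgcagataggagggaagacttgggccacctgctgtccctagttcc
Both strands were searched. The STAT motif was found in *Siglech*, with its first base at position -123 from the start, and 7.02% of 32851 promoter windows of this length held it. Neither it, the core of the interferon-stimulated response element, GAAA followed by GAAA after 2 free bases (2.98% of windows), nor the PU.1 core GAGGAA (23.3% of windows) was matched in the windows of *Itgax* and *Epcam*, and those of *Flt3* and *Zbtb46* also held none of the 3. *Cd207* held 1 PU.1 core. A match is only a run of letters, and its absence covers this window alone.

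Values are log2 signals from robust multi-array averaging (RMA), and a difference of 1 is a 2-fold change. The number of arrays limits their precision, and RMA gives no detection calls. Levels of different genes are not compared, because each probe set has its own response. Weeks differed in the spread of all signals, the 75th percentile of an array being 8.47 to 8.68 in week 5, 8.15 to 8.35 in week 6 and 8.68 to 8.78 in week 13, so week and batch cannot be told apart. The mean of 7 skeletal muscle genes was low in 3 vehicle arrays, at 8.06 in PBS gavage week 6 replicate 5, 7.53 in PBS ip week 13 replicate 3 and 7.93 in PBS pump week 13 replicate 2, and in weeks 5 and 6 that of 7 hair shaft keratins was high in sham replicate 4 and jak12i replicates 2 and 3, at 11.09, 11.51 and 11.25. Calls of the 8 genes that changed without these arrays are given with both values. Those fits kept the middle PBS ip and PBS pump arrays of week 13, at 10.89 and 12.02 for muscle genes. The muscle mean of that week was 13.54 to 13.88 with il15rb and 13.48 to 13.54 with jak3i. Leaving out the 3 low arrays therefore did not make the groups alike in muscle genes. Keratinocyte genes, 7 of 7 measured, averaged 12.64 to 13.27 in all groups, and each array's average lay above its own 75th percentile. In whole skin, fewer cells of a type and less RNA per cell cannot be told apart.

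In week 13, *Itgax* and *Epcam* fell under all 3 treatments, while *Flt3*, *Zbtb46*, *Cd83* and *Cd207* passed the test under none. *Cd86* also fell under jak3i, and *Siglech* rose under il15rb. That made 3 of 8 genes called with il15rb, where 25.7% of all tested genes were called, 3 of 8 with jak3i (16% of all genes) and 2 of 8 with jak12i (21.9%). In week 6, *Flt3* fell with jak3i, 1 of 8 against 4.1% of all genes, and *Cd86* fell with jak12i, 1 of 8 against 9.58%. In week 5 none of the 8 was called between il15rb and PBS ip (0.0733% of all genes), between PBS ip and sham (0.0293%) or between il15rb and sham (0.0293%), and none had an unadjusted p below 0.05 in limma's test, where 4.02%, 5.01% and 11.6% of all genes did. With 8 genes, these shares rest on single genes. All adjusted p-values are limma's, corrected by Benjamini-Hochberg over 13650 genes.

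**Figure D1:**
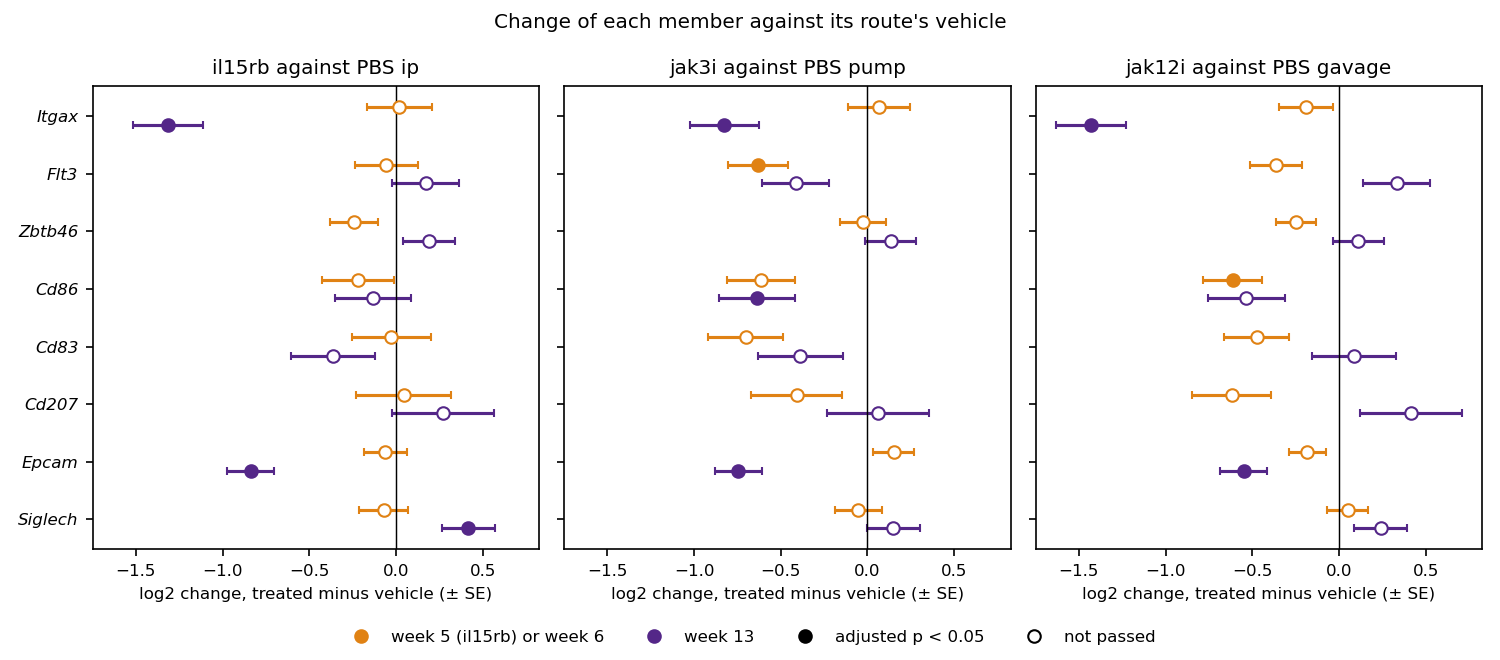
Log2 change (x axis, treated minus vehicle of its route, ± SE) of each of the 8 genes (y axis), 1 panel per treatment, with the early week in orange and week 13 in purple. Filled points passed an adjusted p of 0.05, and only *Itgax* and *Epcam* have a filled week 13 point left of 0 in all 3 panels.

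*Itgax* was the member with the largest week 13 changes. With il15rb its signals were 7.15, 7.26 and 7.13, against 8.66, 7.99 and 8.84 with PBS ip. With jak3i they were 7.498, 7.19 and 7.98, against 8.45, 8.22 and 8.47 with PBS pump. With jak12i they were 7.10, 7.49 and 7.26, against 8.76, 8.19 and 9.18 with PBS gavage. Every treated array lay below every array of its vehicle. The log2 changes were -1.31 ± 0.20 (SE), adjusted p = 1.05e-05 with il15rb, -0.83 ± 0.20 (SE), adjusted p = 0.00397 with jak3i and -1.43 ± 0.20 (SE), adjusted p = 3.81e-06 with jak12i (n = 3 each, limma), or 2.49-, 1.77- and 2.69-fold lower. Without the arrays low in muscle genes they were -1.14 with il15rb and -0.90 with jak3i. The jak3i call was lost when the fit held week 13 arrays only (adjusted p = 0.0546) or the 2 groups only (adjusted p = 0.0862).

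Before week 13 *Itgax* did not separate treated skin from its vehicle. In week 5 the signals were 7.09, 6.87 and 7.14 with il15rb and 7.08, 6.88, 7.07 and 7.01 with PBS ip, with sham at 7.01, 7.05, 7.15 and 6.98. In week 6 they averaged 7.51 ± 0.30 with jak3i and 7.45 ± 0.17 with PBS pump, and 7.10 ± 0.20 with jak12i and 7.29 ± 0.20 with PBS gavage (SD). The group means of weeks 5 and 6 ran from 7.01 to 7.51. In week 13 the treated groups averaged 7.18 to 7.56 and the vehicles 8.38 to 8.71. In order from the highest, week 13 ran PBS gavage, PBS ip, PBS pump, jak3i, jak12i and il15rb, and the step from PBS pump to jak3i was the only one at which neighbouring groups did not overlap.

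**Figure D2:**
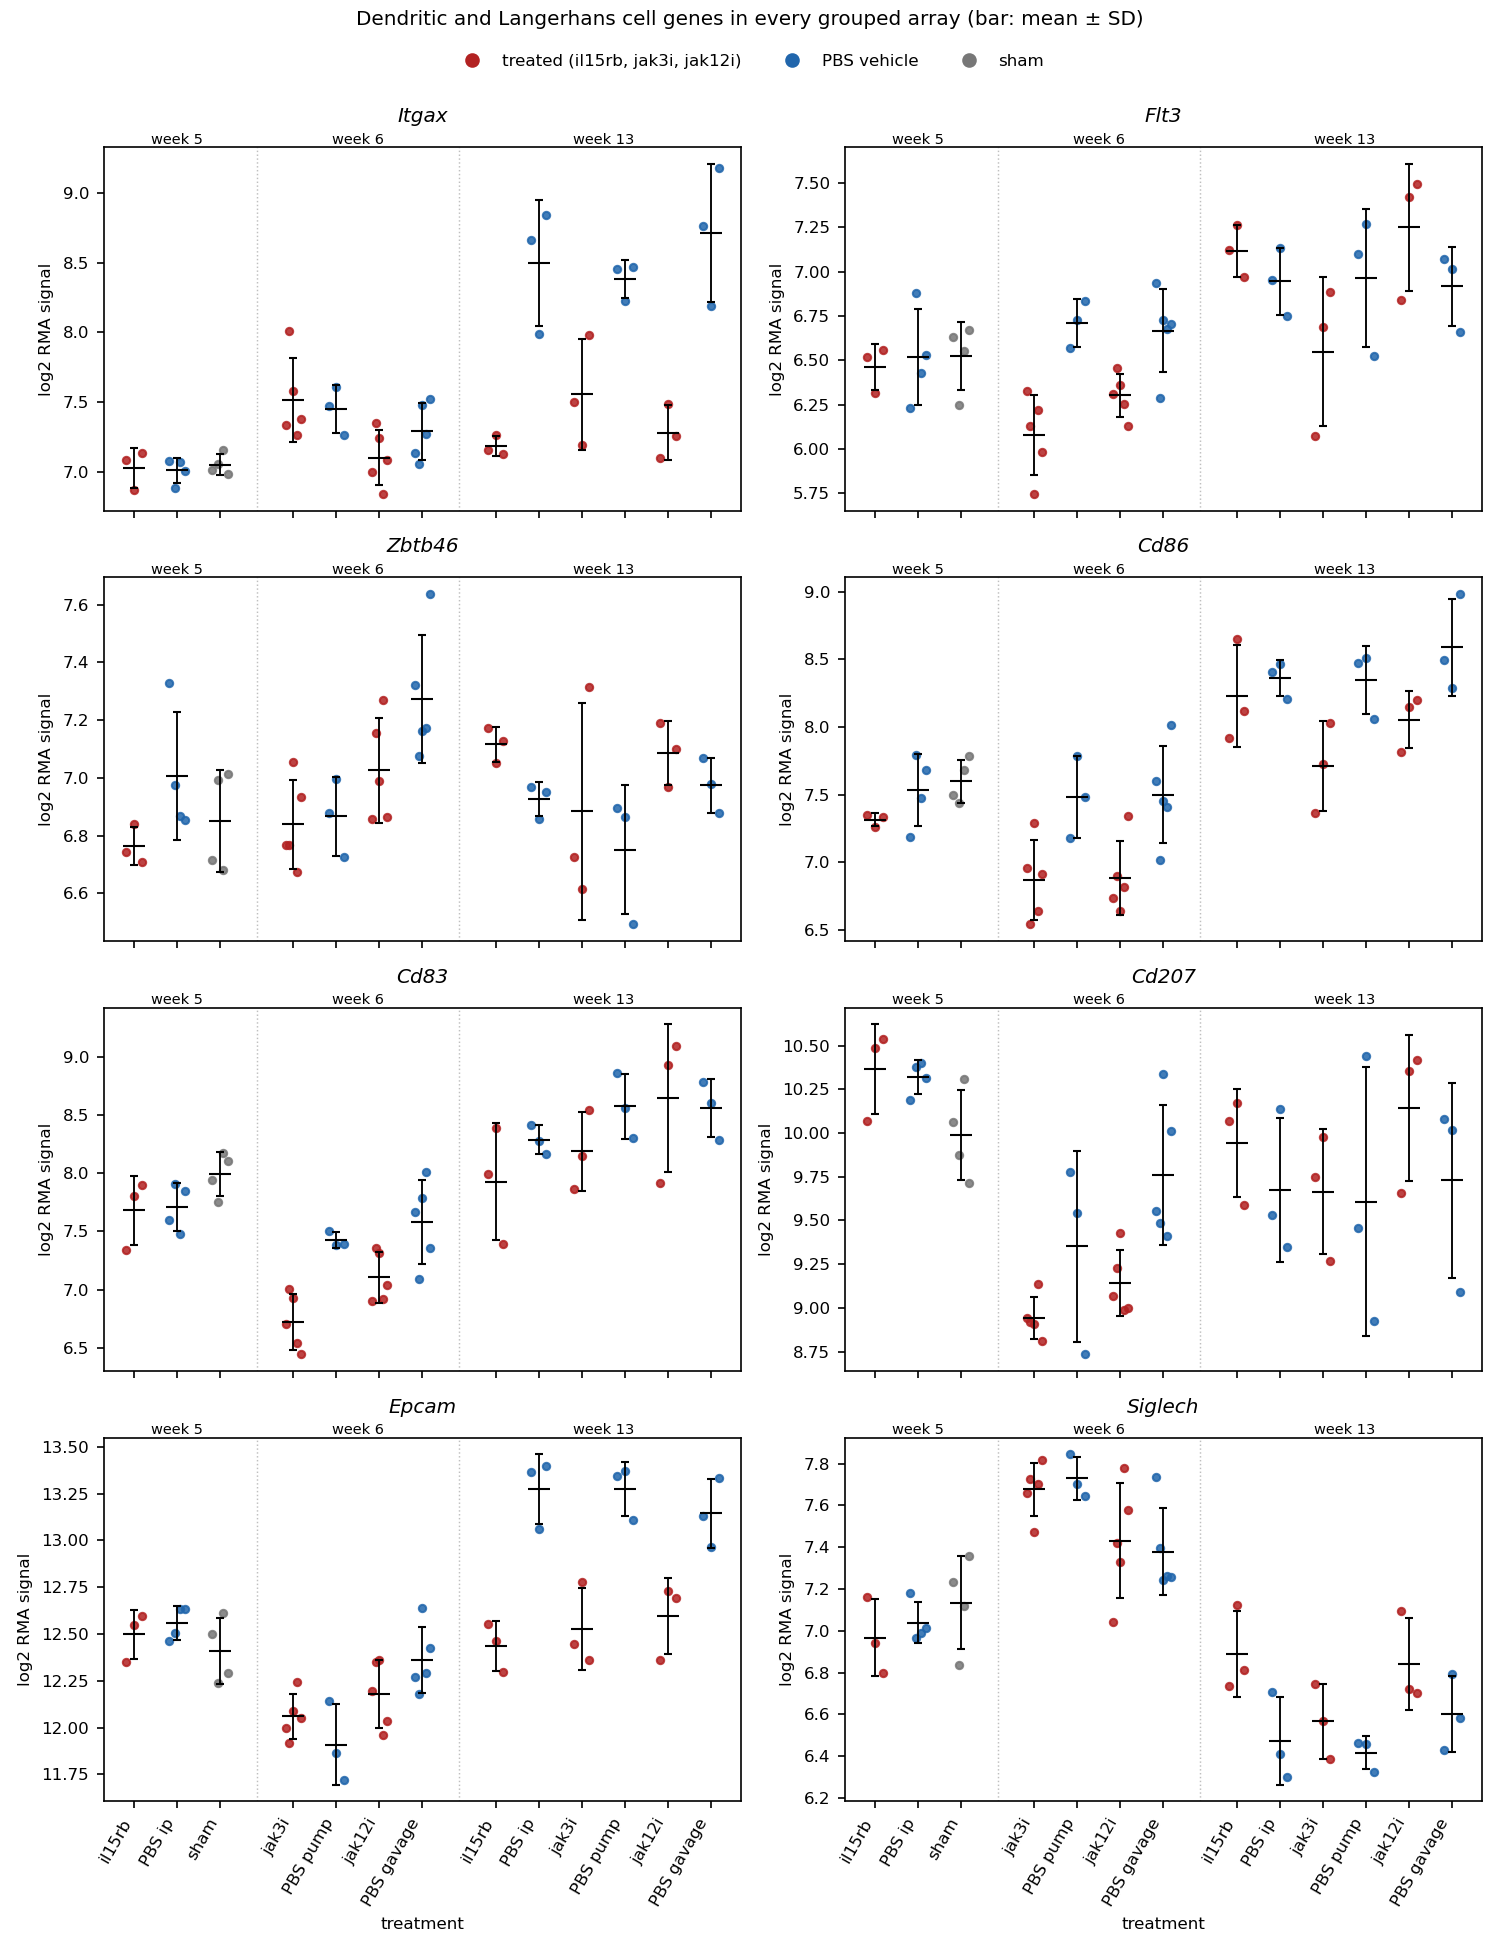
Log2 signal (y axis) of each array, 1 panel per gene, with arrays arranged by week and group along the x axis, each treated group left of its vehicle, with the group mean and ± SD drawn as bars. The treated arrays of week 13 lie below their vehicles for *Itgax* (7.1 to 8.0 against 8.0 to 9.2) and *Epcam* (12.3 to 12.8 against 13.0 to 13.4), while the groups of *Cd207* and *Zbtb46* largely overlap.

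T cell genes moved the same way in week 13. Of 11 T cell genes, 9 were measured and 8 tested, and 8 fell with il15rb, 7 with jak3i and 5 with jak12i. Of all tested genes, 10.6% fell and 15.1% rose with il15rb in week 13. The shares were 6.32% and 9.66% with jak3i, and 10.3% and 11.6% with jak12i. They are the background for every list count of week 13 given below. *Cd8a*, the alpha chain of the CD8 coreceptor, changed by -2.17, -2.40 and -1.88 on the log2 scale in those comparisons (adjusted p of 4.06e-09, 1.20e-10 and 5.66e-08, limma). The mean of the 9 measured genes spanned 6.61 to 6.83 with il15rb and 7.67 to 8.33 with PBS ip, 6.49 to 6.68 with jak3i and 7.66 to 8.22 with PBS pump, and 6.86 to 7.11 with jak12i and 7.71 to 7.95 with PBS gavage. The mean of *Cd5* was below 5.38, the highest 25th percentile of any week 13 array, in all 3 treated groups and in none of the vehicles of that week. Macrophage genes, 13 of 14 measured, were called in both directions, at counts near those shares: 2 rose and 1 fell with il15rb, 1 rose and 1 fell with jak3i, and 1 rose and 2 fell with jak12i. Their mean spanned 9.66 to 10.27 with il15rb and 9.54 to 9.76 with PBS ip, 9.19 to 10.12 with jak3i and 9.12 to 10.12 with PBS pump, and 9.60 to 9.86 with jak12i and 9.63 to 10.04 with PBS gavage. With the arrays low in muscle genes left out, 6 T cell genes fell with il15rb, and the macrophage fall with il15rb and rise with jak3i were not called. Skeletal muscle genes rose, 7 of 7 with il15rb and 1 of 7 with jak3i, against vehicles that held 2 of those low arrays, and none was called with jak12i. Without the low arrays 6 rose with il15rb and none with jak3i. The part of T cells in the *Itgax* result was not tested.

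*Flt3*, the receptor for the growth factor that maintains dendritic cells, passed the test in 1 comparison, jak3i in week 6. With jak3i its week 6 signals were 6.33, 6.13, 5.75, 6.22 and 5.98, against 6.57, 6.73 and 6.83 with PBS pump, and the groups did not overlap. The change was -0.63 ± 0.17 (SE), adjusted p = 0.0275 (n = 5 and 3, limma). With jak12i the signals were 6.31, 6.46, 6.36, 6.26 and 6.13, against 6.94, 6.29, 6.73, 6.68 and 6.703 with PBS gavage, a change of -0.36 ± 0.15 (SE), adjusted p = 0.118 that did not pass. The jak3i call was lost on leaving out jak3i replicate 3 (adjusted p = 0.0871) or replicate 5 (0.0586), or PBS pump replicate 2 (0.142) or replicate 3 (0.167). In week 13 the change was 0.17 with il15rb, -0.41 with jak3i and 0.33 with jak12i, with overlapping groups and adjusted p of 0.549, 0.144 and 0.225. Without PBS pump replicate 3 the week 13 jak3i change was -0.63 (adjusted p = 0.0344).

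Macrophage genes were lower beside *Flt3* in the week 6 jak3i comparison: 8 of the 13 tested fell, among them *Ccr2*, a chemokine receptor of monocytes, by 1.80 on the log2 scale and *C1qc*, a complement chain, by 1.66. Their mean spanned 8.55 to 9.40 with jak3i and 9.73 to 10.42 with PBS pump. With PBS gavage of that week it spanned 9.10 to 9.98, which overlaps jak3i, and with jak12i 8.91 to 9.45. Of the 13 genes, 1 fell with jak12i. Of all tested genes, 3.64% fell with jak3i and 8.1% with jak12i. The part of macrophage genes in the *Flt3* result was not tested.

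*Zbtb46*, a transcription factor of the conventional dendritic cell lineage that endothelial cells also make, passed in none of the 8 comparisons. Its changes ran from -0.25 (jak12i, week 6, adjusted p = 0.166) to 0.19 (il15rb, week 13, adjusted p = 0.362), and its group means in all weeks lay between 6.75 and 7.27. With jak3i in week 6 *Zbtb46* passed when PBS gavage stood in for PBS pump (-0.44, adjusted p = 0.00214, limma). Against PBS gavage 6246 of all 13650 tested genes passed with jak3i, where 559 did against PBS pump. In week 13 the il15rb arrays, at 7.17, 7.05 and 7.13, stood above the PBS ip arrays, at 6.97, 6.86 and 6.95, a difference that did not pass.

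*Cd86* encodes the costimulatory ligand B7-2, which binds CD28 and CTLA-4 on T cells. In week 6 its signals were 6.73, 6.90, 6.64, 6.82 and 7.35 with jak12i, against 7.60, 7.02, 7.45, 7.41 and 8.02 with PBS gavage. The jak12i arrays were lower on average but the groups overlapped, and the change was -0.61 ± 0.17 (SE), adjusted p = 0.0181 (n = 5 each, limma). With jak3i the signals were 6.96, 6.54, 7.29, 6.64 and 6.92, against 7.18, 7.78 and 7.49 with PBS pump, a change of the same size that did not pass (-0.61 ± 0.20 (SE), adjusted p = 0.0725). The difference between the week 6 effects of jak3i and jak12i had a 95% interval of -0.53 to 0.53. The jak12i call was lost on leaving out jak12i replicate 1 (adjusted p = 0.0515) or 3 (0.0547), PBS gavage replicate 5, which was low in muscle genes (0.0869), or the 3 arrays high in hair shaft genes (0.119).

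In week 13 *Cd86* fell with jak3i, at 7.37, 7.73 and 8.03 against 8.47, 8.51 and 8.06 with PBS pump, with no overlap (-0.64 ± 0.22 (SE), adjusted p = 0.0442). With jak12i the signals were 7.82, 8.15 and 8.20, against 8.49, 8.29 and 8.98 with PBS gavage, also without overlap but short of the threshold (-0.53 ± 0.22 (SE), adjusted p = 0.0795). With il15rb the change was -0.13 ± 0.22 (SE), adjusted p = 0.699, and the groups overlapped. The jak3i call was lost when jak3i replicate 1 (adjusted p = 0.227) or 2 (0.0777) or PBS pump replicate 1 (0.13) or 2 (0.138) was left out, the last being low in muscle genes. It was also lost without all 3 arrays low in muscle genes (-0.55, adjusted p = 0.114), after quantile normalization (0.0587), with no filter (0.0514) and in fits of week 13 arrays (0.0841) or of the 2 groups only (0.143). A second *Cd86* probe set changed by -0.70 with jak3i and -0.31 with jak12i in week 6, and by 0.09 with il15rb, -1.02 with jak3i and -0.66 with jak12i in week 13.

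*Cd83*, a surface molecule that mature dendritic cells and activated lymphocytes display, passed in no comparison. Its largest change was in week 6 with jak3i, where the signals were 6.71, 7.001, 6.93, 6.54 and 6.44, against 7.51, 7.38 and 7.39 with PBS pump. All 5 treated arrays lay below the 3 vehicle arrays, and the change was -0.70 ± 0.22 (SE), adjusted p = 0.0584. With jak12i in that week it was -0.47 ± 0.19 (SE), adjusted p = 0.104, with overlap. In week 13 the changes were -0.36, -0.39 and 0.09 with il15rb, jak3i and jak12i (adjusted p of 0.287, 0.296 and 0.837), and the jak12i arrays were spread widely, at 7.92, 8.93 and 9.09. *Cd83* and *Cd86* of week 6 passed with jak3i when PBS gavage stood in for PBS pump, at -0.86 (adjusted p = 0.000322) and -0.63 (adjusted p = 0.00281). Against PBS gavage 6246 of all 13650 tested genes passed with jak3i, where 559 did against PBS pump. In week 13 *Cd83* passed with il15rb against PBS pump (-0.65, adjusted p = 0.0411). It also passed there against the PBS arrays of all routes pooled (-0.55, adjusted p = 0.0292). Against those pooled arrays 4780 of all tested genes passed with il15rb, where 3512 did against PBS ip.

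*Cd207* encodes langerin, the lectin that forms the Birbeck granules of Langerhans cells, and it passed in none of the 8 comparisons. In week 13 its signals were 10.07, 10.17 and 9.59 with il15rb and 9.53, 10.14 and 9.35 with PBS ip. They were 9.75, 9.97 and 9.27 with jak3i and 9.46, 10.44 and 8.93 with PBS pump, and 9.66, 10.35 and 10.41 with jak12i and 10.08, 10.02 and 9.09 with PBS gavage. The groups overlapped in each pair, and the changes were 0.27 ± 0.29 (SE), adjusted p = 0.531, 0.06 ± 0.29 (SE), adjusted p = 0.927 and 0.41 ± 0.29 (SE), adjusted p = 0.336. In week 6 *Cd207* was lower on average with jak12i, at 9.14 ± 0.19 (SD) against 9.76 ± 0.40 with PBS gavage (-0.62 ± 0.23 (SE), adjusted p = 0.0783), and with jak3i (-0.41 ± 0.26 (SE), adjusted p = 0.485). Neither passed. The week 5 groups averaged 10.36 ± 0.26 with il15rb, 10.32 ± 0.09 with PBS ip and 9.99 ± 0.26 with sham (SD).

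*Epcam*, the other Langerhans cell marker, fell in every week 13 comparison with vehicle. With il15rb its week 13 signals were 12.56, 12.46 and 12.29, against 13.37, 13.06 and 13.40 with PBS ip. With jak3i they were 12.45, 12.78 and 12.36, against 13.34, 13.37 and 13.11 with PBS pump, and with jak12i 12.36, 12.73 and 12.69, against 13.13, 12.97 and 13.33 with PBS gavage. Treated and vehicle arrays did not overlap in any of the 3 pairs, and PBS gavage, the lowest vehicle, lay wholly above jak12i, the highest treated group. The changes were -0.84 ± 0.14 (SE), adjusted p = 2.36e-05 with il15rb, -0.75 ± 0.14 (SE), adjusted p = 0.000139 with jak3i and -0.55 ± 0.14 (SE), adjusted p = 0.00324 with jak12i (n = 3 each, limma). Without the arrays low in muscle genes they were -0.78 with il15rb and -0.70 with jak3i, and both stayed past the threshold. A second *Epcam* probe set changed by -0.37, -0.30 and -0.40. In weeks 5 and 6 no *Epcam* change passed, the sizes being -0.06 with il15rb, 0.15 with jak3i and -0.18 with jak12i.

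Epithelial genes were read beside *Epcam* because it is not confined to Langerhans cells. Of 7 keratinocyte genes, 2 fell with il15rb, 1 with jak3i and 2 with jak12i in week 13. None of them fell with il15rb once the arrays low in muscle genes were left out. *Krt79*, a keratin of the follicle's upper canal and sebaceous duct, fell by 0.93, 0.84 and 0.91 on the log2 scale, while *Krt15*, a keratin of the follicle bulge, rose by 0.75, 0.82 and 1.31. In the list of sebaceous and follicle epithelium, 7 of 8 measured genes were tested, and 3 rose and 2 fell with il15rb, 2 rose and 1 fell with jak3i, and 3 rose and 1 fell with jak12i. The mean of the hair shaft keratins spanned 5.81 to 9.86 with il15rb and 7.76 to 11.36 with PBS ip, 9.92 to 11.60 with jak3i and 9.74 to 12.23 with PBS pump, and 5.83 to 6.60 with jak12i and 9.16 to 11.72 with PBS gavage. The part of epithelial cells in the *Epcam* result was not tested.

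**Figure D3:**
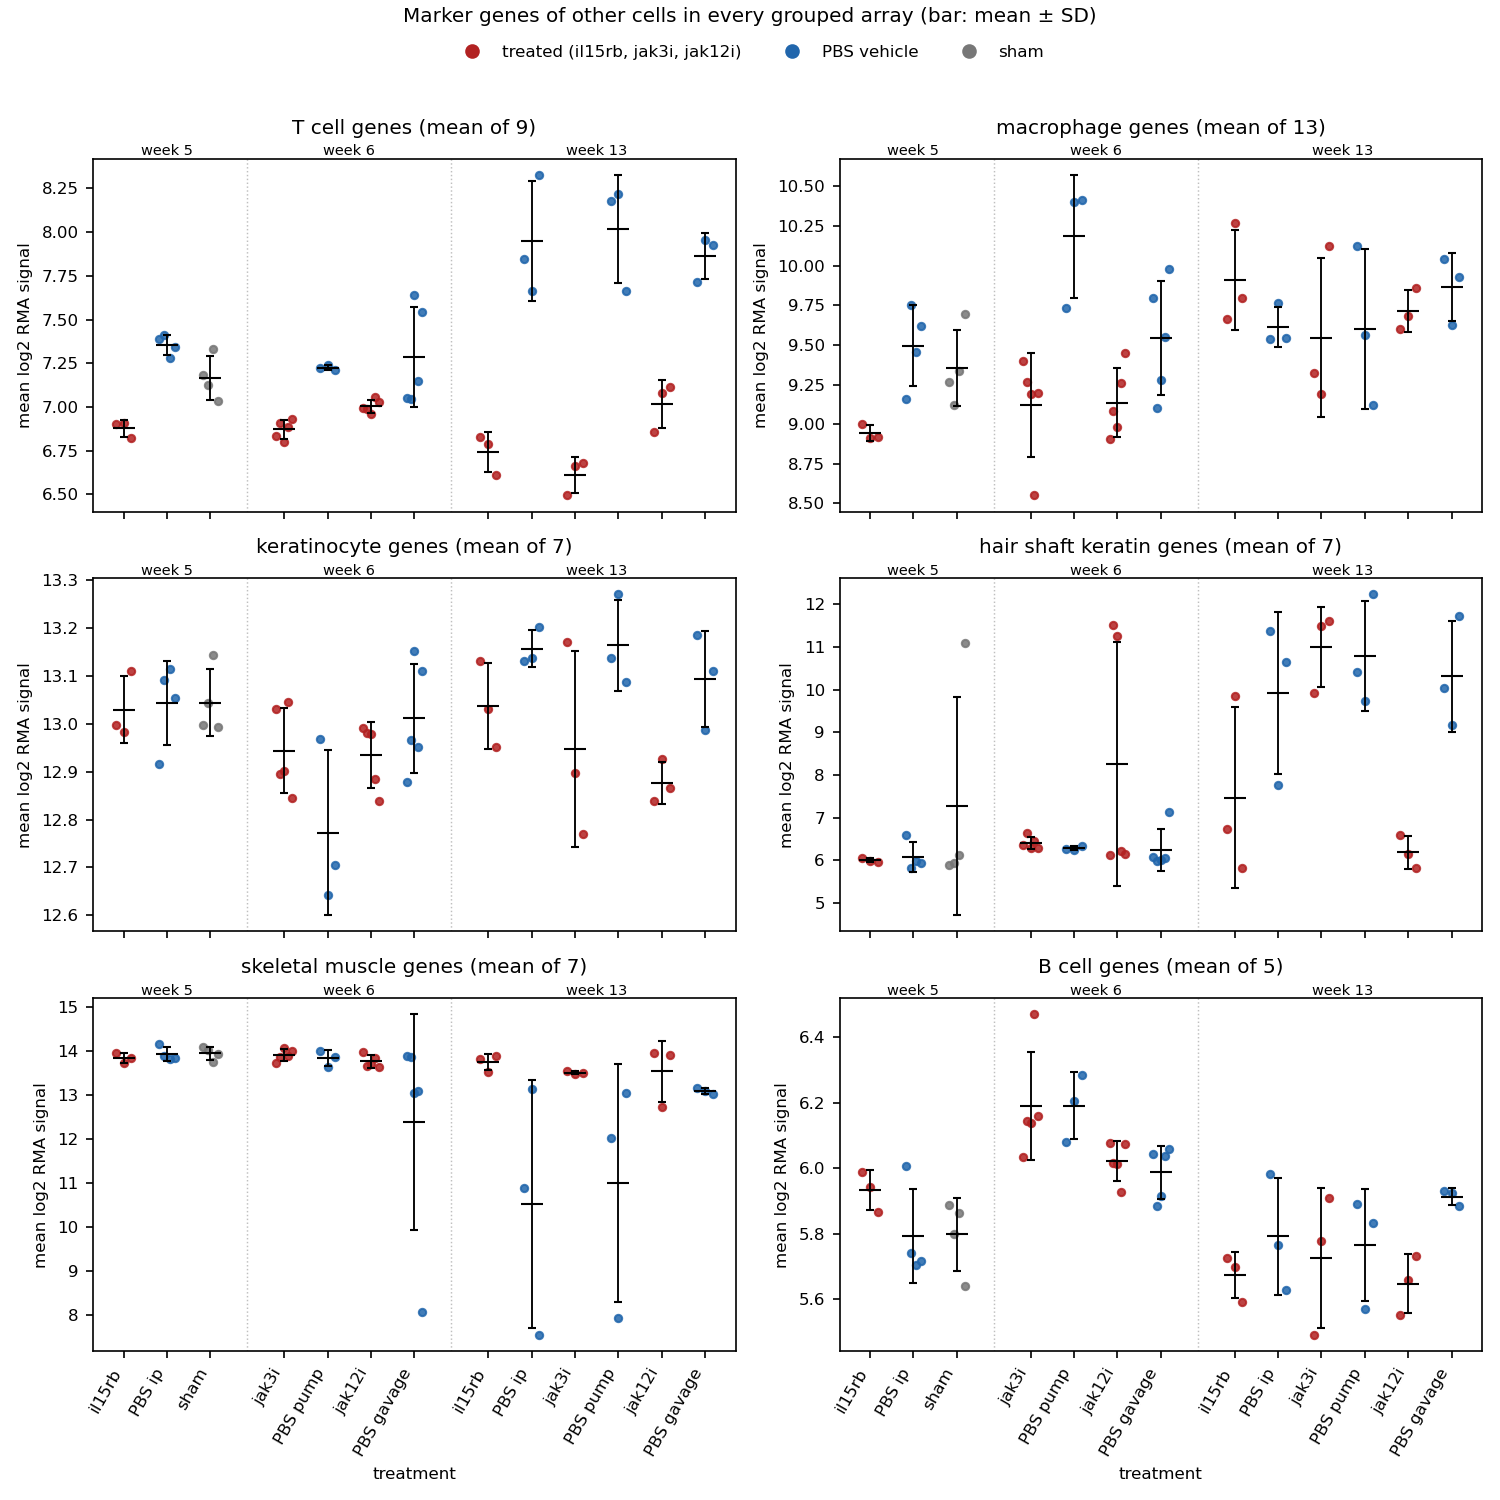
Mean log2 signal (y axis) over the measured genes of each marker list in every array, by week and group along the x axis, each treated group left of its vehicle, with the group mean and ± SD drawn as bars. T cell means of the week 13 treated arrays lie below all their vehicles, keratinocyte means stay within 12.64 to 13.27, and the low vehicle arrays stand out in the skeletal muscle panel.

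*Siglech* encodes a lectin of mouse plasmacytoid dendritic cells. In week 13 its signals were 6.73, 7.12 and 6.81 with il15rb, against 6.71, 6.41 and 6.30 with PBS ip, without overlap, and it rose by 0.42 ± 0.15 (SE), adjusted p = 0.0404 (n = 3 each, limma). With jak3i the change was 0.15 ± 0.15 (SE), adjusted p = 0.56, and with jak12i 0.24 ± 0.15 (SE), adjusted p = 0.271, both with overlapping groups. Against PBS pump the jak12i change passed (0.42, adjusted p = 0.0298, limma). Against the PBS arrays of all routes pooled, 5201 of all 13650 tested genes passed with jak12i, where 2987 did against PBS gavage. *Siglech* was among the 5201 (0.34, adjusted p = 0.0258, limma). In week 6 it averaged 7.68 ± 0.13 with jak3i and 7.73 ± 0.10 with PBS pump, and 7.43 ± 0.28 with jak12i and 7.38 ± 0.21 with PBS gavage (SD), and in week 5 6.97 ± 0.18 with il15rb, 7.04 ± 0.10 with PBS ip and 7.14 ± 0.22 with sham. The il15rb call was lost without il15rb replicate 2 (adjusted p = 0.197) or 3 (0.0651), or PBS ip replicate 2 (0.0843) or 3 (0.196), the last being an array low in muscle genes. It was also lost without all 3 arrays low in muscle genes (0.33, adjusted p = 0.199), after quantile normalization (0.110), in fits of week 13 arrays (0.0602) or of the 2 groups only (0.130), and against PBS gavage (0.180). Among 7 tested genes of the plasmacytoid list, 3 fell and none rose with il15rb, 4 fell and 1 rose with jak3i, and 2 fell with jak12i. *Bst2*, which interferons also induce widely, led them at -2.15 with jak3i, -1.63 with jak12i and -0.93 with il15rb, the last with overlapping groups.

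In week 5 the changes of the 8 genes with il15rb against PBS ip ran from -0.24 for *Zbtb46* to 0.04 for *Cd207*, with standard errors of 0.13 to 0.28. The 3 il15rb arrays of *Zbtb46*, at 6.74, 6.84 and 6.71, lay below the PBS ip arrays, at 7.33, 6.97, 6.87 and 6.85. *Cd86* averaged 7.32 ± 0.05 with il15rb, 7.54 ± 0.27 with PBS ip and 7.60 ± 0.16 with sham, and *Cd83* 7.68 ± 0.30, 7.71 ± 0.21 and 7.99 ± 0.19 in the same order (SD). Between PBS ip and sham the largest differences were 0.33 for *Cd207* and -0.29 for *Cd83*. T cell genes were called in the il15rb comparison, where *Cd247*, the CD3 zeta chain, fell by 0.83 and *Cd3g*, the gamma chain, by 1.30 on the log2 scale (adjusted p of 0.00465 and 0.0145).

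The question whether an effect differed between the early and the late week was tested as a difference of the 2 changes, in the same fit. For *Itgax* the late change was below the early one, by differences of -1.33 with il15rb (adjusted p = 0.00195; background 10.6% of genes called), -0.89 with jak3i (adjusted p = 0.03; 9.18%) and -1.24 with jak12i (adjusted p = 0.00111; 16.1%). For *Epcam* the difference was -0.78 with il15rb (adjusted p = 0.00631), -0.90 with jak3i (adjusted p = 0.00149) and -0.37 with jak12i (adjusted p = 0.14), the last not passing. *Flt3* with jak12i went the other way, with a late change higher by 0.70 (adjusted p = 0.0459). Each count was 2 of 8 genes. Without the arrays low in muscle genes the *Cd207* difference with jak12i passed (0.97, adjusted p = 0.0422), and without those high in hair shaft genes that of *Flt3* did not (0.77, adjusted p = 0.0627). Vehicle and treated skin were both measured within a week, but the week of a comparison and any batch that goes with it cannot be told apart.

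Between the 3 agents no member's difference of effects passed an adjusted p of 0.05 in limma's test, in 4 contrasts in which 2.37% (week 6, jak3i minus jak12i) and 0.00733% of all genes (each of the 3 contrasts of week 13) were called. At an unadjusted p below 0.05 were *Epcam* in week 6, *Itgax* and *Flt3* in week 13 between jak3i and jak12i, and *Flt3* between jak3i and il15rb. For *Itgax* in week 13 the jak3i effect minus the jak12i effect was 0.60 (95% interval 0.03 to 1.18, adjusted p = 0.746), jak3i minus il15rb was 0.49 (-0.09 to 1.06) and jak12i minus il15rb was -0.12 (-0.69 to 0.46). For *Epcam* the same differences were -0.20 (-0.58 to 0.19), 0.09 (-0.29 to 0.48) and 0.29 (-0.10 to 0.68). For *Flt3*, jak3i minus jak12i was -0.75 (-1.30 to -0.19, adjusted p = 0.633) and jak3i minus il15rb was -0.59 (-1.14 to -0.03, adjusted p = 0.683). These intervals are for single genes, unadjusted, and several of them allow differences of more than 1 on the log2 scale.

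Other genes of antigen presentation were read in lists written by hand. For dendritic cell maturation and migration, 9 of 12 genes were tested, and 7 fell with il15rb, 5 with jak3i and 5 with jak12i in week 13, with list medians of -1.19, -0.55 and -0.85 where the median of all tested genes was 0.01 to 0.03. Of all tested genes, 10.6% fell with il15rb, 6.32% with jak3i and 10.3% with jak12i in that week, and 3.64% with jak3i and 8.1% with jak12i in week 6. *Ccl17*, a chemokine that attracts CCR4-bearing T cells, changed by -1.56 (adjusted p = 0.000939) with il15rb, -2.23 (adjusted p = 9.89e-06) with jak3i and -2.90 (adjusted p = 2.63e-07) with jak12i. *Cd274*, the inhibitory ligand PD-L1, changed by -1.40, -1.98 and -1.46, and *Cd40*, a costimulatory receptor, by -1.11 with jak3i and -0.83 with jak12i. In week 6 *Relb*, a nuclear factor kappa B subunit, fell with jak3i (-0.47, adjusted p = 0.0133) and with jak12i (-0.49, adjusted p = 0.00178, with overlap). *Ccr7*, *Cd80* and *Il12b* did not pass the filter.

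Conventional dendritic cells form 2 lineages, and their genes were read apart. Of the type 1 list, 6 of 8 genes were tested, and 3 fell with il15rb, 5 with jak3i and 3 with jak12i in week 13. These included the transcription factors *Irf8*, at -0.83, -1.35 and -0.97, and *Batf3*, at -0.95, -0.85 and -0.97, and the integrin chain *Itgae*, at -1.99, -2.28 and -1.37, which resident CD8 T cells also carry. Of the 8 tested type 2 genes, 4 rose with il15rb, 1 with jak3i and 2 with jak12i, and none fell, where 15.1%, 9.66% and 11.6% of all tested genes rose. The medians of the type 2 list were 0.72, 0.04 and 0.24, and 4 of its 8 genes were below 0 with jak3i. No test of a difference between the 2 lists was run. *Cd209a*, a lectin of type 2 and monocyte-derived dendritic cells, rose by 1.998, 1.29 and 1.61 (adjusted p of 4.06e-06, 0.00154 and 9.40e-05). Without the arrays low in muscle genes the il15rb count of type 2 genes was 1 rather than 4. In week 6 the same lists had 3 and 2 falls with jak3i and 3 and 3 with jak12i, and *Cd209a* fell with jak12i (-0.80, adjusted p = 0.0166). Of *Xcr1* and *Clec9a*, which define type 1 cells, *Xcr1* did not pass the filter and *Clec9a* was not among the 7 measured genes of the 8 in the type 1 list.

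Class II antigen presentation genes, 7 of 8 tested, fell in both weeks. In week 13, 6 fell with il15rb, 7 with jak3i and 5 with jak12i, and in week 6, 6 with jak3i and 5 with jak12i. *H2-Ab1*, the beta chain of the class II molecule I-A, changed by -0.72 with jak3i and -0.58 with jak12i in week 6, and by -0.61 with il15rb, -0.94 with jak3i and -0.58 with jak12i in week 13. *Ciita*, the class II transactivator, changed by -0.54, -1.12 and -0.64 in week 13. Without the arrays low in muscle genes the il15rb count was 4. Among 8 genes that Langerhans cells or their upkeep use, *Runx3*, a transcription factor that CD8 T cells also need, fell by 0.78 with il15rb, 1.24 with jak3i and 0.81 with jak12i. In the same list *Il34*, the epidermal cytokine that maintains Langerhans cells, rose by 0.54 with il15rb (adjusted p = 0.0416) and 0.76 with jak12i (adjusted p = 0.00553), and without the arrays low in muscle genes no gene of this list rose with il15rb. In all, 2 of the 8 rose and 2 fell with il15rb, 4 fell with jak3i, and 2 rose and 3 fell with jak12i.

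Of 6 tested growth factor, receptor and signalling genes of dendritic cells, 1 fell with il15rb and 1 with jak3i in week 13 and none was called with jak12i, while in week 6, 1 fell with jak3i and 3 with jak12i. Among them *Stat3*, a transcription factor that JAKs activate, changed by -0.43 (adjusted p = 0.00101) with jak12i in week 6 and by -0.48 (adjusted p = 0.00261) with jak3i in week 13. *Flt3l*, the ligand of FLT3, was not among the 7 measured genes of the 8 in this list, and *Csf2* did not pass the filter. On the T cell side of *Cd86*, *Cd28* was not tested, *Icos* fell with all 3 treatments in week 13 (-1.10, -1.16 and -0.77) and *Ctla4* with jak3i (-1.40, adjusted p = 2.44e-05). The B cell list had 1 of 5 measured genes tested, which passed in no comparison, and the mean of *Cd79a* was below 5.38, the highest 25th percentile of any week 13 array, in all 6 groups of that week.

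**Figure D4:**
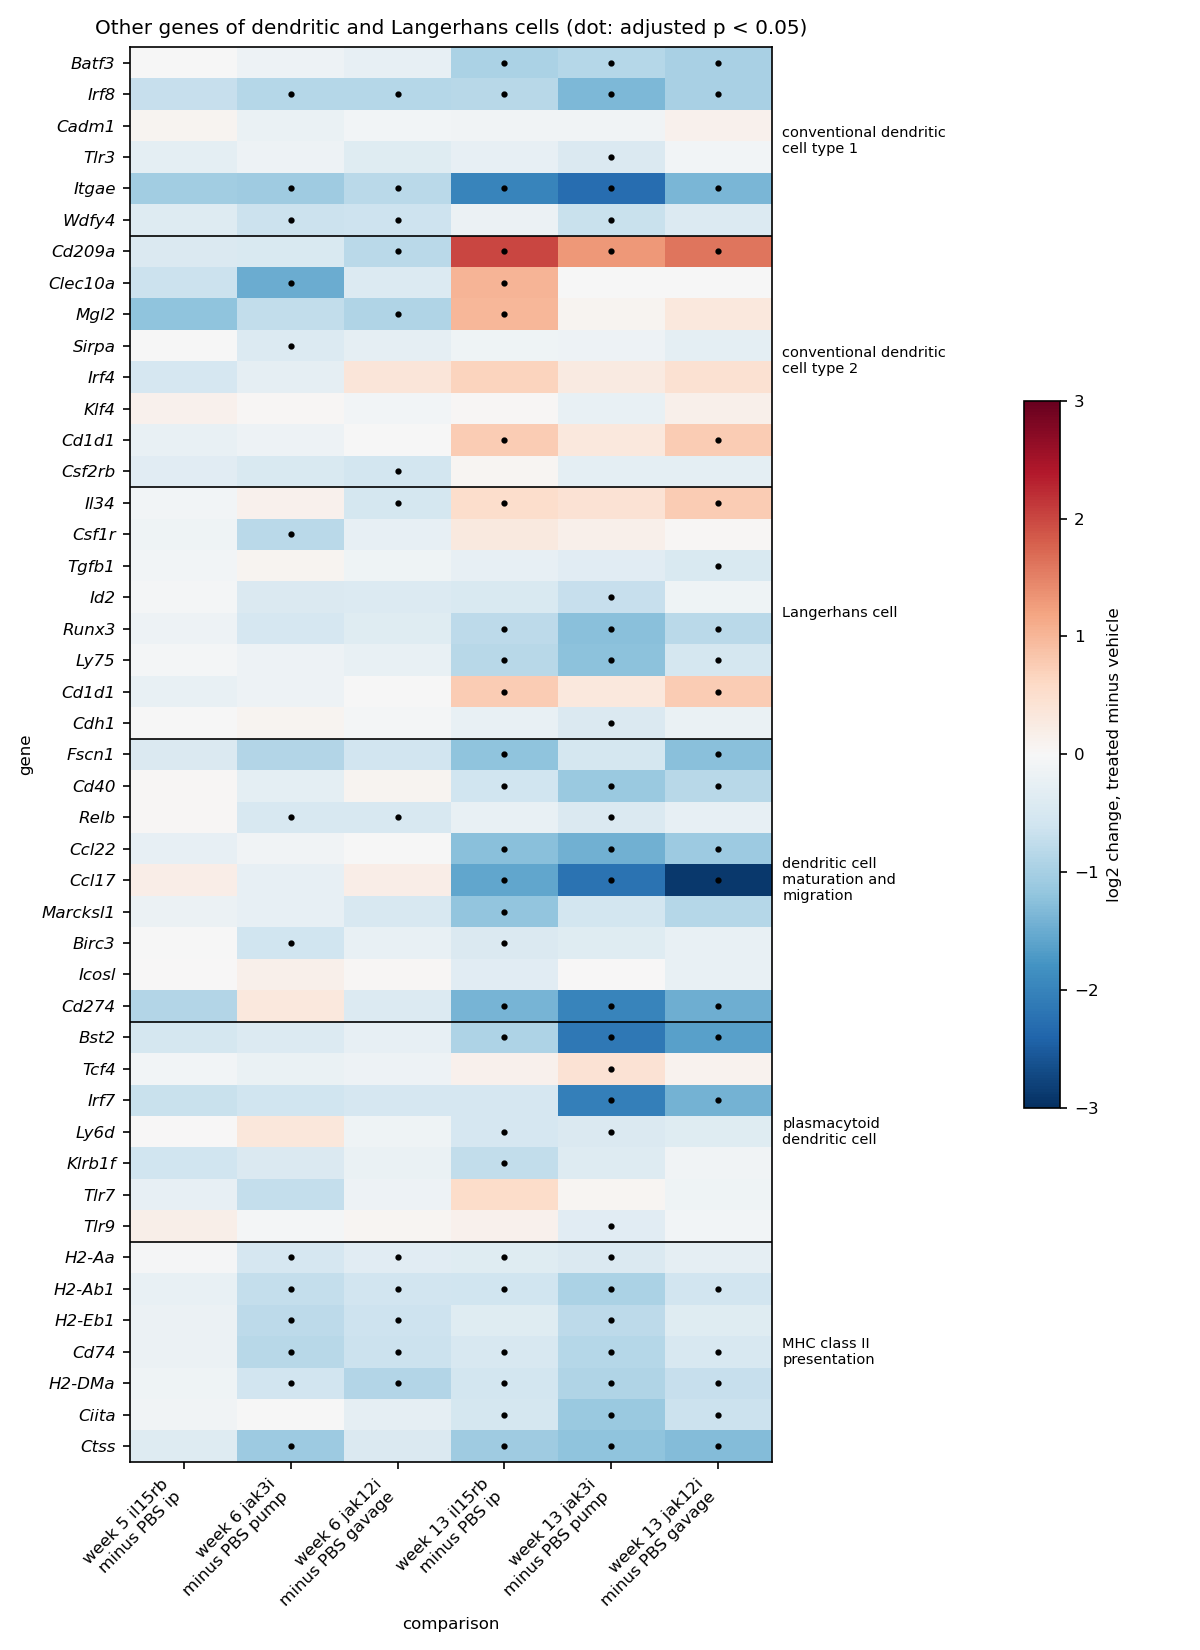
Log2 change (colour, treated minus vehicle, from -3 in blue to 3 in red) of the tested genes of the dendritic cell lists (rows) in the 6 comparisons of a treatment with its vehicle (columns), with a dot where the adjusted p was below 0.05. The deepest blue is that of *Ccl17* with jak12i in week 13, at -2.90, followed by *Itgae* with jak3i at -2.28. In week 13 *Cd209a* stands out in red, at 1.29 with jak3i, 1.61 with jak12i and higher still with il15rb. With jak12i in week 6 *Cd209a* is on the blue side.

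The 8 genes did not vary as 1 block. With each week's mean removed, Pearson correlations between them over 47 arrays ran from -0.55 for *Epcam* with *Siglech* to 0.66 for *Itgax* with *Epcam*, and *Itgax* with *Flt3* gave -0.14. These are descriptions without a test, and the arrays share treatments and weeks. *Itgax* ran with the mean of the maturation list at 0.84 and of the T cell list at 0.71, and with the macrophage list at 0.09. *Epcam* ran with the T cell list at 0.82, the keratinocyte list at 0.69 and the skeletal muscle list at -0.59. *Cd86* ran with class II genes at 0.80, the type 1 list at 0.79 and the macrophage list at 0.72. *Flt3* ran most with the type 2 list (0.59) and the macrophage list (0.58), and *Cd207* with none above 0.41.

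The 3 genes most alike in pattern, of all tested and by the same measure, were F7 (0.93), Acod1 (0.89) and Gch1 (0.88) for *Itgax*, and Krt17 (0.93), Cdcp1 (0.92) and Krt79 (0.92) for *Epcam*. For *Cd86* they were Hpse (0.87), Wdfy4 (0.87) and Ptpn18 (0.86), and for *Flt3* Lrmp (0.72), Cd209e (0.72) and E330020D12Rik (0.71). For *Cd207* they were Hpgds (0.79), Ipmk (0.79) and Rint1 (0.76), for *Cd83* Sh3pxd2b (0.72), Stk17b (0.69) and H2-Eb1 (0.68), for *Zbtb46* Rsl1 (0.63), Cnp (0.61) and Pgghg (0.60) and for *Siglech* Vnn3 (0.67), Mogat1 (0.65) and Slc41a3 (0.64). Those of *Zbtb46* and *Siglech* reached at most 0.67, while the closest of *Itgax* and *Epcam* exceeded 0.92. *Krt17* and *Krt79*, both among the genes closest to *Epcam*, are keratins of the hair follicle's epithelium.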

How the data were processed

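Per the submitters' processing notes, the deposited values are log2 signals made with RMA, with no version given. They cover 45101 probe sets on 48 arrays of skin RNA, and they were used as deposited, with no value column left unused. No dose, animal number or scan date was used.

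Probe sets naming 1 gene symbol numbered 34958, and for each of the 18194 genes the one with the highest mean over all arrays was kept. Genes above the table median in at least 3 arrays were tested, 13650 in all. Limma 3.58.1 under R 4.3.3 was used to fit a mean for each of 13 groups to 47 arrays, with moderated variances and Benjamini-Hochberg adjustment within each comparison. Simulated data were used to test the fit. Replicate numbers were not used as pairs in the fit. Arrays of equal number correlated at -0.492 to 0.236 after removal of group means. Arrays of unequal number were not compared with them, so this range cannot decide whether the arrays were paired.

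The 8 genes and the gene lists were chosen with earlier results of these data known, and the text names up to 3 genes of smallest p in each list with a call, plus the 3 genes closest in pattern to each member. Alternatives covered normalization, filters, probe sets, the arrays entering the fit, the vehicle, single arrays left out and the array of conflicting labels. Leaving out 3 arrays low in skeletal muscle genes or 3 high in hair shaft genes was first chosen after seeing the data.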

Additional observations from a re-analysis of the deposited data

Results flagged for a closer look

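Of 56 tests of a member's effect against its effect in another week or under another agent, 6 passed, all of them between weeks, and week and batch cannot be told apart. A value far from the others was sought in 40 sets of 4 or 5 arrays, each set being 1 member in 1 group, and none was found. Groups of 3 arrays, which include every week 13 group, were not searched. The week 13 change of *Itgax* minus the early change was -1.33 with il15rb, -0.89 with jak3i and -1.24 with jak12i. For *Epcam* the difference was -0.78 with il15rb and -0.90 with jak3i, and for *Flt3* it was 0.70 with jak12i, where the week 6 change was -0.36 and the week 13 change 0.33. The *Itgax* difference with jak3i missed the threshold without week 6 jak3i replicate 2 or PBS pump replicate 3, or without week 13 jak3i replicate 1 or 2 or PBS pump replicate 1 or 3, at adjusted p from 0.0540 to 0.100 in limma's test. The *Flt3* difference lost its call without week 6 jak12i replicate 1, 3, 4 or 5, PBS gavage replicate 1, 3, 4 or 5, or without week 13 jak12i replicate 2 or 3 or PBS gavage replicate 2 or 3, at adjusted p up to 0.178.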

How the results depend on the processing

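The week 13 calls of *Itgax* and *Epcam* held under every alternative run, except *Itgax* with jak3i in fits of the week's arrays or of the 2 groups only. Among all recomputed values of single members, 2408 kept their side of the threshold, 34 passed it only under an alternative, 54 lost it and 2 passed it with the sign turned. Of the 2408, 113 had the opposite sign, all of them changes that did not pass. The number of members called with jak3i in week 6 was 1 as reported. It was 3 after quantile normalization and 0 with a filter of 24 arrays, which left *Flt3* untested. It was 2 in fits of the week's arrays or of the 2 groups only. Against the PBS arrays of both routes it was 4, and against PBS gavage it was 7. Against PBS gavage 6246 of all 13650 tested genes were called, so a call there does not single out the members. In that comparison *Epcam* was at -0.30 and *Siglech* at 0.30, the reverse of 0.15 and -0.05 against PBS pump. With jak12i in week 6 the number of members called was 3 after quantile normalization and 0 with the mean of a gene's probe sets. It was also 0 in fits of the week's arrays or of the 2 groups only. Leaving out the arrays low in muscle or high in hair shaft genes gave 0 as well. With il15rb in week 13 it was 2, not 3, after quantile normalization, in fits of the week's arrays or of the 2 groups only, against PBS gavage and without the arrays low in muscle genes, *Siglech* being the gene lost. With jak3i in week 13 it was 1, not 3, in fits of the week's arrays or of the 2 groups only. For the change of the jak12i effect between weeks it was 1, not 2, with a replicate block, with no filter, with a filter of 24 arrays and without the arrays high in hair shaft genes. Other alternatives added calls. In week 13 *Cd83* passed with il15rb, and *Siglech* with jak12i, against PBS pump and against the PBS arrays of all routes. Against the PBS arrays of all routes, 4780 of all 13650 tested genes were called with il15rb and 5201 with jak12i. With the mean of a gene's probe sets, *Cd86* passed with jak12i in week 13 (-0.60, adjusted p = 0.0428). By that measure the *Epcam* change of the jak12i effect between weeks also passed (-0.45, adjusted p = 0.0187). The cause of these shifts was not tested beyond that. Leaving out single arrays gave 0 to 2 members with jak3i and 0 to 2 with jak12i in week 6, 2 to 3 with il15rb, 2 to 4 with jak3i and 2 to 3 with jak12i in week 13, 1 to 2 for the jak3i effect and 1 to 4 for the jak12i effect between weeks, and 2 for the il15rb effect. The replicate block, which pairs arrays by number alone, moved the *Flt3* change with jak3i in week 6 to an adjusted p of 0.0535 and the *Cd86* change to 0.0293. Over all genes, the count with jak3i in week 6 was 559, and 296 to 6246 under the alternatives other than leaving out single arrays. It was 1308 with jak12i (564 to 3975), and in week 13 it was 3512 with il15rb (816 to 4780), 2182 with jak3i (496 to 2786) and 2987 with jak12i (1907 to 5201). In week 5 it was 10 for il15rb against PBS ip (1 to 52), 4 for PBS ip against sham (1 to 20) and 4 for il15rb against sham (1 to 77). For effects between weeks it was 1453 with il15rb (844 to 1811) and 2204 with jak12i (1228 to 2584), for jak3i minus jak12i in week 6 it was 323 (32 to 421), and for the contrasts of agents in week 13 it was 1 each (0 to 4). RMA signals have no background flag here, so low signals cannot be given a detection limit.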

Other observations

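The week 5 array whose title names PBS ip and whose treatment label names IL15 had log2 signals of 7.01 for *Itgax*, 6.66 for *Flt3*, 6.96 for *Zbtb46*, 7.47 for *Cd86*, 7.93 for *Cd83*, 10.29 for *Cd207*, 12.62 for *Epcam* and 6.83 for *Siglech*.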
